A study of Capra hircus with 20 samples.

Results

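The miR-23, miR-27 and miR-24 miRNAs of the goat hypothalamus are described here across 4 ages after birth. Members were the rows of the miRNA table named miR-23a, miR-23b, miR-27a, miR-27b or miR-24, on either arm, and 9 of the 683 rows in the table met this rule. They were chi-miR-27a-5p, chi-miR-27a-3p, chi-miR-27b-5p, chi-miR-27b-3p, both arms of miR-23b and of miR-24, and miR-23a, whose name gives no arm. The prefix chi, for Capra hircus, is left out from here on. Hypothalamus was taken from Jining grey goats, an early-maturing Chinese breed, at 1, 60, 120 and 180 days of age, with 5 biological replicates at each age, read here as 1 animal each, all housed and fed alike. The labels name no treatment and no genetic change, and the sex of the animals is not given in the sources used here.

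In mammals these miRNAs come from a pair of paralogous gene clusters, in which a miR-23, a miR-27 and a miR-24 hairpin are cut from a shared transcript. The RefSeq annotation of the goat genome (assembly ARS1.2) lists MIR23A beside MIR27A, both within the span of ZSWIM4, and MIR23B, MIR27B and MIR24 in a row within the span of C8H9orf3. Each hairpin gives a 5p and a 3p strand, and for these genes the 3p strand is the main product. The mature 3p forms of miR-23a and miR-23b, and of miR-27a and miR-27b, share a seed and differ only near the 3' end. The authors' counting could thus have split reads between these 3p forms. Mature miR-24 can come from either cluster. In human and mouse, miR-27 represses regulators of fat cell formation such as PPARG, miR-23 represses glutaminase and the nuclear envelope gene LMNB1, and the clusters are abundant in blood vessel lining. In mouse, repression of LMNB1 by miR-23 favours the maturation of the myelin-forming oligodendrocytes.

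Levels are given as RPM, a count per 1000000 miRNA reads of the library. The libraries held between 4017937 and 8324880 miRNA reads, so that a floor of 3 reads lay between 0.360 and 0.747 RPM, for counting error only. Every member in every library lay above that floor, the lowest count being 19 reads for miR-23b-5p. The neural miR-9-5p (137173 to 224857 RPM over the 4 age means) and the neuroendocrine miR-7-5p (46470 to 125963 RPM) were abundant, as known of brain and hypothalamus, and miR-124a, a neuronal miRNA, averaged 706 to 1189 RPM. In whole tissue, fewer cells of a type and less RNA per cell cannot be told apart.

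Together the 9 members took 5.28% ± 2.63 of miRNA reads at 1 day, 5.21% ± 2.56 at 60 days, 6.18% ± 1.79 at 120 days and 6.15% ± 3.03 at 180 days (SD, n = 5 animals at each age here and below). The spread within an age was far wider than the spread between ages. The summed share was lowest in replicate 4 of day 180 (2.02%), of day 60 (2.13%) and of day 1 (2.37%). The same libraries held much miR-7-5p, at 304600 RPM, 229215 RPM and 117711 RPM, against a median of 57208 RPM over all libraries. The relation was not strict: replicate 1 of day 60 held 204802 RPM of miR-7-5p with a summed share of 5.01%, and replicate 1 of day 1 held 100879 RPM with 6.77%. Values in RPM share a fixed total, and the part of miR-7-5p in the low shares was not tested.

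**Figure D1:**
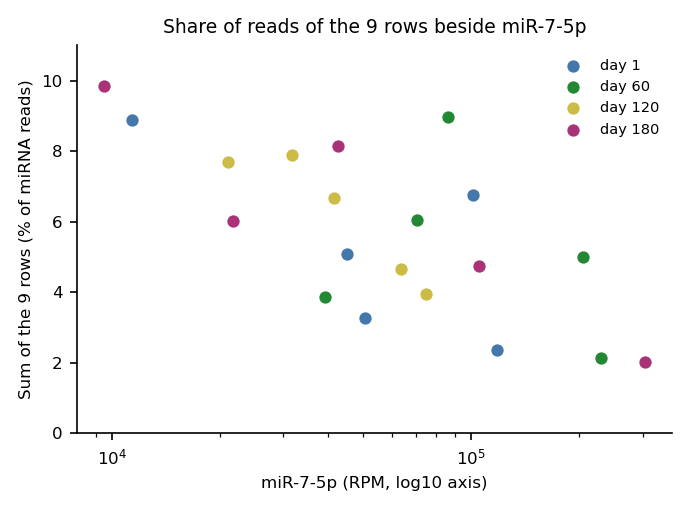
Summed share of the 9 members (percent of miRNA reads, y axis) against miR-7-5p (RPM, log10 x axis) in each of the 20 libraries, coloured by age. The 2 libraries with the most miR-7-5p, replicate 4 of day 60 and of day 180, have the lowest summed shares, at 2.13% and 2.02%.

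No member passed the test for a difference between ages. limma on log2(RPM + 1) called 0 of 9 in the F test over the 4 ages, in which 1.93% of the 414 tested miRNAs were called, with adjusted p-values from 0.466 (miR-27a-5p) to 0.986 (miR-24-5p). All 9 passed the filter on low values. Between pairs of ages it called 0 of 9 each time. Among all tested miRNAs the share called was 3.86% for day 60 against day 1, 3.38% for day 120 against day 1, 3.38% for day 180 against day 1, and 0% for the 3 comparisons among days 60, 120 and 180. At an unadjusted p under 0.05 stood 3 of the 54 limma tests of members, 1 for day 60 against day 1 and 2 for day 120 against day 1. The shares of all tested miRNAs at that level were 21% and 22.5% in these comparisons, 20.8% for day 180 against day 1, 16.9% in the F test, 3.14% for day 120 against day 60, 0.725% for day 180 against day 120 and 4.83% for day 180 against day 60. edgeR and DESeq2 on the reads recovered from the RPM values called 0 of 9 in each of these comparisons too. The smallest adjusted p of a member between ages was 0.194, and standard errors ran from 0.39 to 0.52 log2 units.

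Among the 3p strands of the b cluster, miR-27b-3p was by far the most abundant member, at 4.17% of all reads and rank 9 in the table. It measured 56211, 16117, 32570, 19040 and 71943 RPM in replicates 1 to 5 of day 1, and 34252, 42526, 24219, 14724 and 70305 RPM on day 60. On day 120 it measured 30762, 31656, 53500, 47367 and 60957 RPM, and on day 180 it measured 43472, 64742, 70907, 13202 and 34610 RPM. The 4 ages overlapped widely. The highest library held 5.45 times the lowest, while the highest age mean was 1.22 times the lowest. Day 180 stood 0.23 log2 units above day 1 in the limma fit (SE 0.49, 95% interval -0.77 to 1.24, adjusted p = 0.831), with means of 45387 ± 23354 RPM on day 180 and 39176 ± 24211 RPM on day 1.

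miR-23b-3p, the neighbour of miR-27b in its cluster, averaged 7550 ± 3229 RPM at 1 day, 10452 ± 3520 at 60 days, 11269 ± 4634 at 120 days and 11059 ± 5777 at 180 days. Its lowest library held 2523 RPM (replicate 4 of day 1) and its highest 19768 RPM (replicate 3 of day 180). Day 120 lay 0.60 log2 units above day 1 (SE 0.47, limma adjusted p = 0.495), within the spread of the animals.

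miR-24-3p, a repressor of the cell death gene BCL2L11 in mouse, had the widest range of the abundant members. In replicates 1 to 5 it measured 2119, 5578, 9824, 1143 and 2609 RPM on day 1, and 1863, 2362, 1724, 774 and 3844 RPM on day 60. The values were 3066, 1898, 2677, 1824 and 2175 RPM on day 120, and 1936, 2807, 2735, 1057 and 2428 RPM on day 180. Replicates 2 and 3 of day 1 lay above all 18 other libraries, while the other 3 of day 1 lay among them. The mean lay between 2113 and 2328 RPM at the later ages, against 4255 ± 3525 RPM on day 1, and day 60 against day 1 gave a log2 fold change of -0.79 (SE 0.49, limma adjusted p = 0.382).

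In the a cluster, both main products had their lowest mean on day 1 and their highest on day 120, without passing the test. The age means of miR-23b-3p and miR-24-5p ranked in the same order, so this order was not particular to the a cluster. miR-23a measured 1520, 1424, 945, 909 and 2784 RPM at 1 day, 2583, 2322, 1870, 1149 and 2116 RPM at 60 days, 1015, 3208, 3787, 3844 and 2882 RPM at 120 days and 2405, 2256, 4491, 1747 and 1715 RPM at 180 days. On day 120 all libraries except replicate 1 lay above the highest of day 1. The log2 fold change of day 120 against day 1 was 0.94 (SE 0.42, 95% interval 0.07 to 1.82, unadjusted p = 0.0349 from limma), with means of 2947 ± 1153 RPM on day 120 and 1516 ± 760 RPM on day 1, and the limma adjusted p was 0.194. Without replicate 1 of day 120 the log2 fold change of miR-23a was 1.29, and over all fits that left out 1 library the limma adjusted p ran from 0.0787 to 0.343.

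miR-27a-3p was present at a small fraction of the level of miR-27b-3p. It measured 151, 179, 160, 89.7 and 238 RPM at 1 day, 212, 246, 291, 84.1 and 260 RPM at 60 days, 251, 313, 305, 277 and 253 RPM at 120 days and 283, 330, 364, 132 and 249 RPM at 180 days. The libraries of day 120 lay close together, and all 5 were above the 5 of day 1. Ages that do not overlap were found for 1 of 9 members in that comparison and for 7.25% of the 414 miRNAs. In the other pairs of ages they were found for 0 of 9 members, beside 3.14% of all miRNAs for day 60 against day 1, 3.62% for day 180 against day 1, 0.966% for day 120 against day 60, 0.725% for day 180 against day 120 and 1.93% for day 180 against day 60. Day 120 averaged 280 ± 28.6 RPM and day 1 averaged 163 ± 53.3 RPM (log2 fold change 0.83, SE 0.41, limma adjusted p = 0.226).

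The 5p strands were scarce. miR-27b-5p averaged 62.5 ± 26.0 RPM at 1 day, 51.2 ± 17.5 at 60 days, 35.6 ± 10.9 at 120 days and 41.1 ± 19.99 at 180 days. miR-24-5p stayed between 29.5 ± 16.6 RPM at 1 day and 33.1 ± 14.4 RPM at 120 days, the narrowest range of age means of all members, at 1.12-fold. miR-23b-5p averaged 6.62 ± 2.71, 16.02 ± 14.2, 5.99 ± 2.80 and 7.28 ± 5.20 RPM at the 4 ages in order, with 40.0 RPM in replicate 3 of day 60 alone.

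miR-27a-5p was the least abundant member. It measured 6.99, 15.2, 9.68, 5.73 and 14.0 RPM at 1 day, 3.59, 4.79, 8.50, 5.44 and 4.36 RPM at 60 days, 8.19, 4.32, 5.39, 4.48 and 3.74 RPM at 120 days and 9.18, 4.01, 5.13, 5.10 and 7.70 RPM at 180 days. Replicates 2, 3 and 5 of day 1 lay above all other libraries, and the other 2 of day 1 lay within the later ages. Its log2 fold change was -0.80 for day 60 against day 1 (SE 0.39, unadjusted p = 0.0485 from limma), with a limma adjusted p of 0.237. For day 120 against day 1 it was -0.82 (SE 0.39, unadjusted p = 0.0435 from limma), with a limma adjusted p of 0.212.

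**Figure D2:**
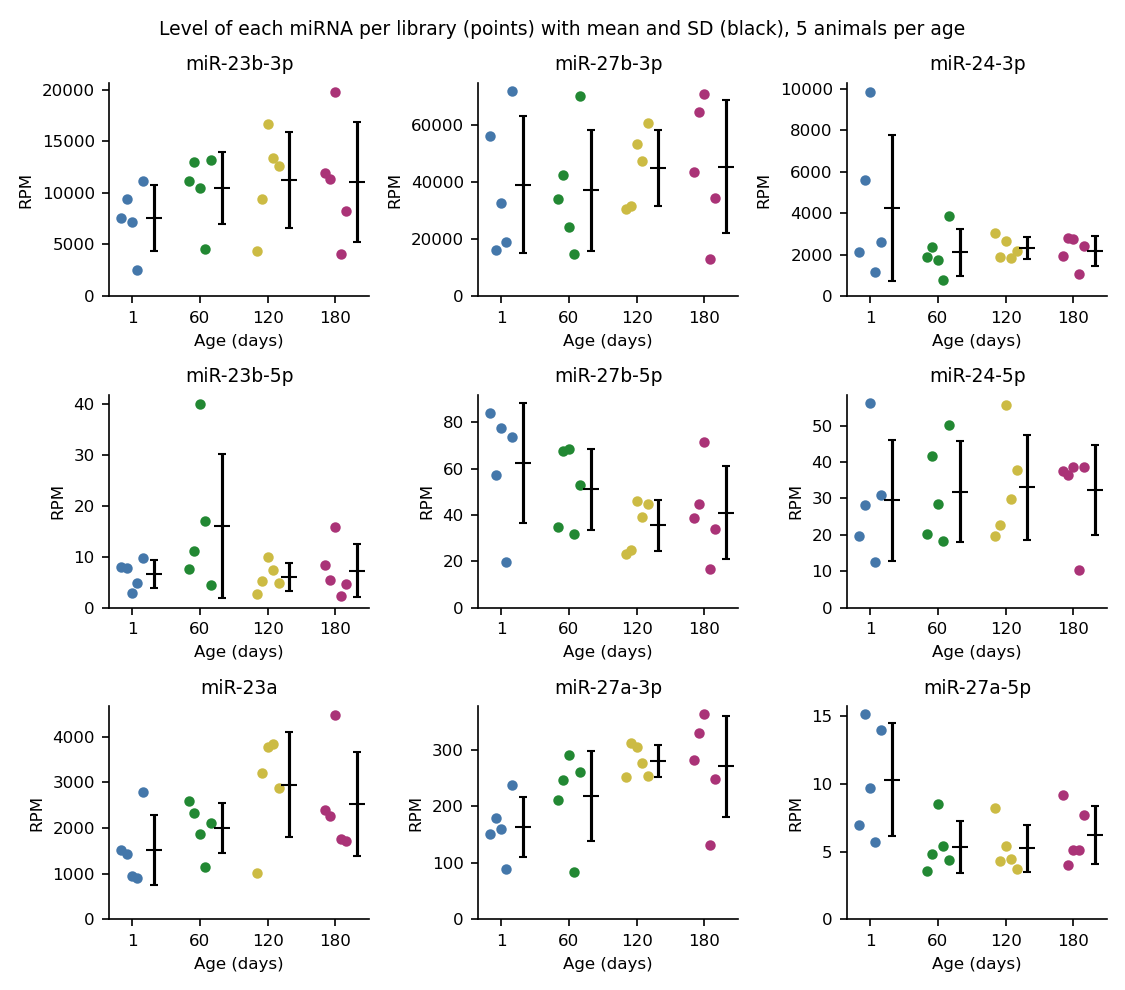
Level of each of the 9 members (RPM, linear y axes from 0) in every library at 1, 60, 120 and 180 days of age (x axis), with the mean and SD of 5 animals in black beside the points. The ages overlap for every member except miR-27a-3p, whose day-120 libraries (251 to 313 RPM) all lie above day 1 (89.7 to 238 RPM).

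Between the same ages the fold changes of the members had both signs. For day 60 against day 1, 5 of 9 log2 fold changes were positive, and their median was 0.17 beside -0.04 over all 414 miRNAs. For day 120 against day 1 it was again 5 of 9, with a median of 0.23 beside -0.12. For day 180 against day 1 it was 5 of 9, with a median of 0.16 beside -0.25. These 3 comparisons share the day-1 libraries. Day 120 against day 60 gave a median of 0.07 beside 0.03, with 6 of 9 above 0. Day 180 against day 120 gave -0.07 beside -0.15, with 3 of 9 above 0. Day 180 against day 60 gave 0.15 beside -0.15, with 5 of 9 above 0.

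A plain ratio within a library does not depend on the library total, and the balance of the 2 strands of a hairpin was compared by ratios. The 1 RPM added to each strand before log2 leaves some dependence on the total, most for scarce strands such as miR-27a-5p. The ratio of 5p to 3p, on the log2(RPM + 1) scale, was tested for the 115 miRNAs with both arms at a mean of 1 RPM or more. With 30 ratios of a to b paralogs and the ratio of miR-23a to miR-23b-3p, added after the data were seen, this made 146 ratios in 6 pairs of ages. An exact permutation test (two-sided) of 5 against 5 libraries cannot go below p = 0.00794, and after adjustment over all 876 tests the smallest p was 0.204, so this test called no ratio in the table. Before adjustment, p was under 0.05 for 23.5% of the 115 arm ratios for day 60 against day 1, 33.9% for day 120 and 21.7% for day 180 against day 1. The shares were 5.22% for day 120 against day 60, 6.09% for day 180 against day 120 and 3.48% for day 180 against day 60. limma on the same ratios was added after the data were seen. Its p-values were adjusted over the 146 ratios of each pair of ages and not over all 876 tests. The adjusted p-values of the 2 tests are thus not corrected alike.

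The 5p strand of miR-27a made up a smaller share of its 3p strand at the later ages than in newborns. limma on the ratios called this difference for day 60 and day 120 against day 1, and the exact permutation test, after adjustment, for none. miR-27a-5p stood at 6.29% ± 1.39 of miR-27a-3p at 1 day, 2.94% ± 2.03 at 60 days, 1.90% ± 0.774 at 120 days and 2.57% ± 1.18 at 180 days. The log2 ratios were -4.25, -3.48, -3.92, -3.75 and -3.99 at 1 day, -5.54, -5.41, -4.94, -3.73 and -5.61 at 60 days, -4.78, -5.88, -5.58, -5.66 and -5.74 at 120 days and -4.80, -6.05, -5.90, -4.45 and -4.84 at 180 days. All 5 libraries of day 120, and all 5 of day 180, lay below the 5 of day 1, while on day 60 replicate 4 lay within the day-1 range.

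Of the 3 differences with day 1, that of day 120 was the largest, at -1.65 log2 units (a 3.15-fold lower ratio; exact permutation p = 0.00794, adjusted p = 0.204). limma on the ratios gave it an SE of 0.40 and an adjusted p of 0.00849, and called 6.85% of the 146 ratios in that comparison. The limma call held in all 20 fits that each left out 1 library, the difference then lying between -1.84 and -1.55 and the adjusted p between 0.00541 and 0.0337. The ages did not overlap, which in the lower direction was so for 8.7% of the 115 arm ratios here, for 5.22% with day 180 against day 1 and for 3.48% with day 60 against day 1. By size of change miR-27a ranked 6 from the lowest of the 115.

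The difference of day 180 against day 1 was -1.33 (2.51-fold lower; exact permutation p = 0.00794, adjusted p = 0.204). limma on the ratios did not call it (adjusted p = 0.0559, background 4.79% called). Leaving out replicate 4 of day 60 brought a call (limma adjusted p = 0.0371), and leaving out any other single library did not (highest adjusted p 0.140). For day 60 against day 1 the difference was -1.17 (2.25-fold lower; exact permutation p = 0.0397, adjusted p = 0.344). Here limma on the ratios gave an adjusted p of 0.0448, with 19.2% of all ratios called. That call held in 7 of the 20 fits that left out 1 library. Its adjusted p then ran from 0.0261 (replicate 4 of day 60 left out) to 0.114 (replicate 2 of day 60 left out). The call ended on leaving out any single day-1 library, any day-60 library but replicate 4, or any day-120 library but replicate 1. Among the 3 later ages the exact permutation test gave adjusted p-values from 0.650 to 0.923, and limma on the ratios called 0% of all ratios in each pair. Without the 2 libraries with the most miR-7-5p, an alternative added after the data were seen, the differences with day 1 were -1.52 for day 180 and -1.50 for day 60, and limma on the ratios called both (adjusted p = 0.0315 and 0.0243). These libraries, replicate 4 of day 60 (-3.73) and of day 180 (-4.45), held the highest miR-27a ratio of their age. Leaving them out could only make both differences larger, so these calls are not separate support. At each later age the mean of the 5p strand was lower and that of the 3p strand higher than on day 1, and neither strand passed the test on its own.

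In the sister hairpin miR-27b the 5p share was lowest on day 120, a difference with day 1 that neither test called. Its 5p strand stood at 0.190% ± 0.108 of the 3p strand at 1 day, 0.167% ± 0.0851 at 60 days, 0.0791% ± 0.00505 at 120 days and 0.0964% ± 0.0203 at 180 days. The 5 libraries of day 120 spanned only -10.38 to -10.15 log2 units and lay below all of day 1, which spanned -9.91 to -8.11. The difference was -1.08 (exact permutation p = 0.00794, adjusted p = 0.204), and limma on the ratios did not call it (SE 0.39, adjusted p = 0.0883). Without replicate 5 of day 1 the difference was -1.26 and limma called it (adjusted p = 0.0466), and without replicate 2 of day 1 the adjusted p was 0.169.

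For miR-24 the 5p share was lowest on day 1, again without a call. As mature miR-24 can come from either cluster, this ratio need not be that of a single hairpin. miR-24-5p was 0.856% ± 0.305 of miR-24-3p at 1 day, 1.63% ± 0.486 at 60 days, 1.45% ± 0.554 at 120 days and 1.45% ± 0.354 at 180 days. The difference of day 60 against day 1 was 0.95 log2 units (exact permutation p = 0.0238, adjusted p = 0.307; limma on the ratios, adjusted p = 0.0817), and that of day 180 against day 1 was 0.80 (exact permutation p = 0.0238, adjusted p = 0.307; limma on the ratios, adjusted p = 0.195). The ages overlapped, and the lowest day-1 ratios were those of replicates 2 and 3, in which miR-24-3p was high. For miR-23b the ratio averaged 0.101% ± 0.0543, 0.189% ± 0.174, 0.0539% ± 0.00956 and 0.0620% ± 0.0126 at the 4 ages in order, with no exact permutation p under 0.05 in any pair of ages, the smallest being 0.0794.

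**Figure D3:**
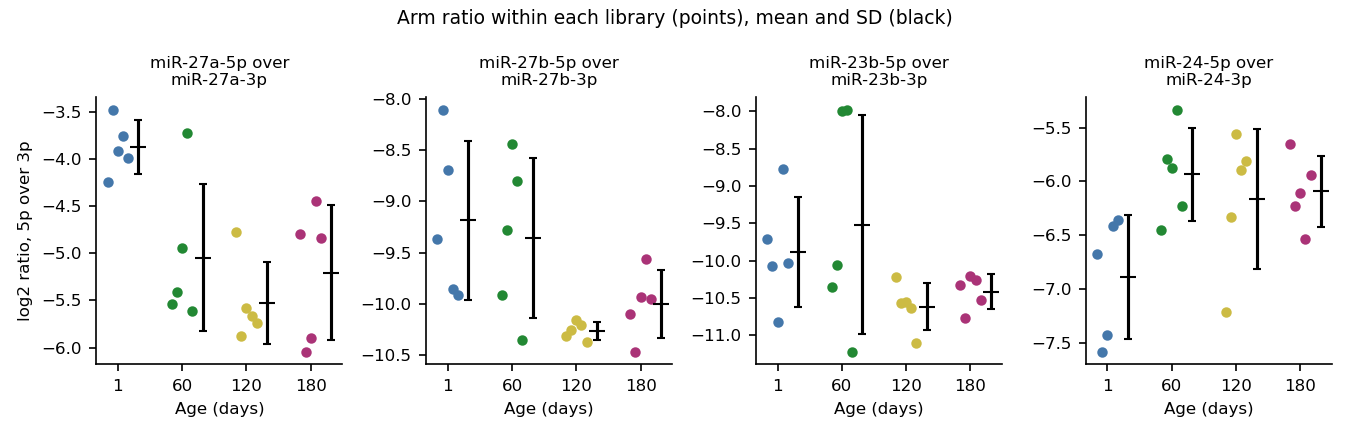
log2 ratio of the 5p to the 3p strand (y axes, each with its own range) for miR-27a, miR-27b, miR-23b and miR-24 in every library at 4 ages, with mean and SD of 5 animals in black. For miR-27a the ratios of day 120 (-5.88 to -4.78) and of day 180 (-6.05 to -4.45) lie below those of day 1 (-4.25 to -3.48).

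**Figure D4:**
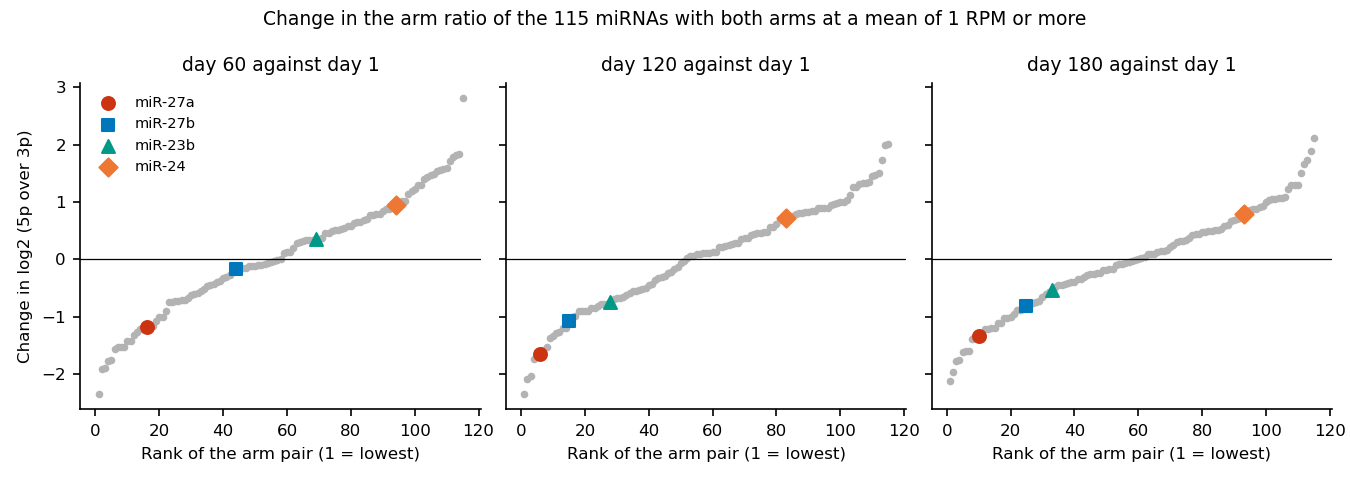
Change in the log2 ratio of 5p to 3p (y axis) for 115 miRNAs ordered by that change (x axis, rank 1 lowest), for day 60, day 120 and day 180 against day 1. The miR-27a pair ranks 16, 6 and 10 from the lowest, and the miR-24 pair ranks 94, 83 and 93.

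limma called the multiciliated cell miRNA miR-449a-5p lower than on day 1 at each later age, as the only 1 of the 4 tested rows of its list. The 5 rows of the multiciliated list summed to 145 to 5126 RPM at 1 day, 72.0 to 395 at 60 days, 114 to 2547 at 120 days and 55.4 to 2022 at 180 days. miR-449a-5p averaged between 0.686 and 2.72 RPM at the later ages, against 19.5 ± 17.7 RPM on day 1. The lowest of these means lay within the range of the floor, 0.360 to 0.747 RPM. On day 120 the libraries ran from 0 to 10.9 RPM. The part of these miRNAs in the miR-27a ratio was not tested.

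The balance of the paralogs showed no called difference between ages, and 0 of the 3 member ratios had an unadjusted p under 0.05 in any pair. Among the 30 paralog ratios of the table that share was 6.67% for day 60 against day 1, 13.3% for day 120 and 10% for day 180 against day 1, 6.67% for day 120 against day 60 and 0% for the remaining pairs. miR-27a-3p was 0.534% ± 0.335 of miR-27b-3p at 1 day, 0.668% ± 0.313 at 60 days, 0.675% ± 0.227 at 120 days and 0.678% ± 0.200 at 180 days, with exact permutation p-values from 0.262 to 0.937 over the 6 pairs of ages. miR-23a was 21.9% ± 9.13, 20.1% ± 4.02, 26.4% ± 5.10 and 25.3% ± 9.96 of miR-23b-3p at the 4 ages in order, with a smallest exact permutation p of 0.0794 for day 120 against day 60. miR-27a-5p was 19.1% ± 8.93, 11.01% ± 3.91, 16.9% ± 10.9 and 18.7% ± 10.2 of miR-27b-5p, with a smallest exact permutation p of 0.159.

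Across the 20 libraries the levels of miR-23b-3p, miR-27b-3p, miR-27a-3p and miR-23a varied together. Of the 36 pairs of members, 30 had a Pearson r above 0 on log2(RPM + 1), and 14 had a permutation p under 0.05 after adjustment over the 36. The same counts were not made over pairs of all tested miRNAs, so these have no background to be read against. Outside the members, miR-338-5p had a higher r with miR-23b-3p, at 0.92, than any member had. miR-23b-3p and miR-23a, from different clusters, gave r = 0.83 and Spearman's rho = 0.82 (permutation p = 1e-05, the smallest that 100000 permutations can give, and p = 5e-05, adjusted p = 0.00036 and 0.0018). Their r was 0.87 without the 2 libraries farthest from the median of miR-23b-3p and 0.84 after centring on the mean of each age. The authors' counting could have split reads between miR-23a and miR-23b-3p, and its part in this r was not tested. miR-23b-3p and miR-27b-3p, from the same cluster, gave r = 0.73 and rho = 0.74 (permutation p = 0.00035 and 0.00031, adjusted p = 0.00252 and 0.00558), 0.62 without the 2 farthest libraries and 0.75 after centring. miR-23a and miR-27a-3p gave r = 0.73 and rho = 0.70 (permutation p = 0.00018 and 0.00081, adjusted p = 0.00162 and 0.00729), 0.65 without the 2 farthest libraries and 0.62 after centring. In the last 2 pairs the libraries left out were those farthest from the median of miR-27b-3p and of miR-23a.

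For miR-24-3p, encoded beside miR-23b and miR-27b, the correlations with their 3p strands did not pass the permutation test, and they depended on the libraries and on centring. With miR-27b-3p it gave r = 0.35 and rho = 0.43 (permutation p = 0.131 and 0.0601, adjusted p = 0.214 and 0.127), and without the 2 libraries farthest from the median of miR-27b-3p r was 0.0023, while after centring on the mean of each age it was 0.40. With miR-23b-3p it gave r = 0.37 and rho = 0.29 (permutation p = 0.113 and 0.215, adjusted p = 0.203 and 0.323), 0.093 without the 2 farthest libraries and 0.55 after centring. With miR-27a-3p it gave r = 0.36 and rho = 0.28 (permutation p = 0.118 and 0.234, adjusted p = 0.203 and 0.337), 0.43 without the 2 farthest libraries and 0.65 after centring. The centred values were not tested. It did vary with its own 5p strand, at r = 0.67 and rho = 0.62 (permutation p = 0.00104 and 0.00407, adjusted p = 0.00535 and 0.0244), 0.61 without the 2 farthest libraries and 0.78 after centring. The strands of miR-27a gave r = -0.12 and rho = -0.29 (permutation p = 0.607 and 0.211, adjusted p = 0.683 and 0.323), -0.30 without the 2 farthest libraries and 0.27 after centring, so that the sign changed. The 2 farthest libraries were taken by miR-23b-3p for its pair, and by miR-24-3p for the pairs with miR-27a-3p and miR-24-5p. For the strands of miR-27a they were taken by miR-27a-3p. The libraries left out can thus differ between pairs. All values share the fixed total of RPM. With median-of-ratios scaling these r values were 0.83 for miR-23b-3p with miR-23a, 0.75 with miR-27b-3p, 0.26 with miR-24-3p, 0.34 for miR-27b-3p with miR-24-3p, 0.29 for miR-27a-3p with miR-24-3p, and 0.17 for the strands of miR-27a, again of the other sign.

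**Figure D5:**
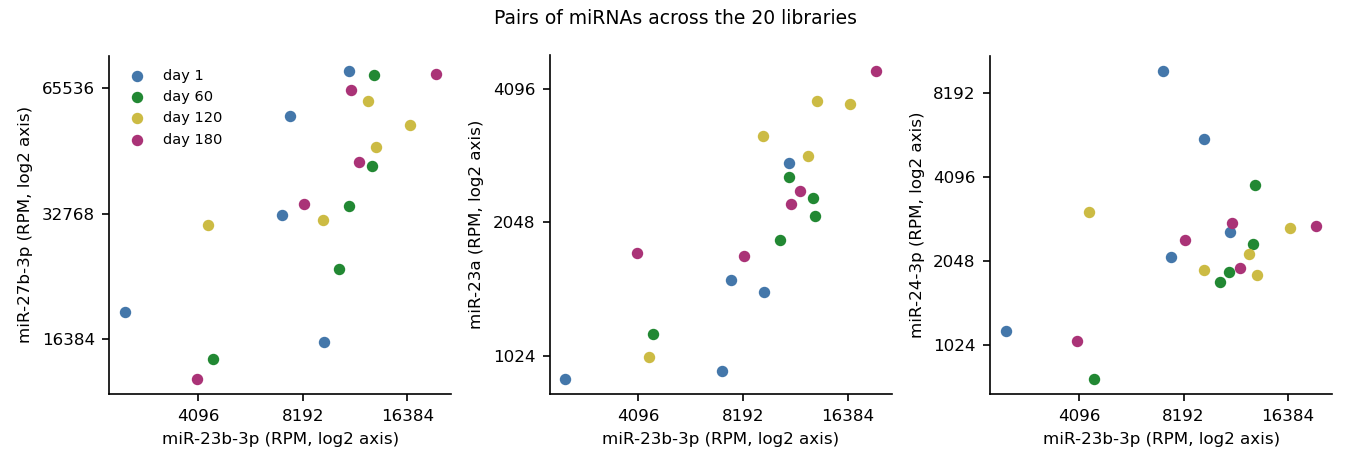
Levels of miR-27b-3p, miR-23a and miR-24-3p (RPM, log2 y axes) against miR-23b-3p (RPM, log2 x axes) in the 20 libraries, coloured by age. The first 2 pairs vary together (r = 0.73 and 0.83), and in the third 2 libraries of day 1 stand high in miR-24-3p (r = 0.37).

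For each member the 5 most alike of 356 other named miRNAs were taken by Pearson r over the 20 libraries, as a description with no test. Closest to miR-23b-3p was miR-338-5p, from an oligodendrocyte miRNA gene, at r = 0.92 (rho = 0.90, and r = 0.91 with median-of-ratios scaling), followed by miR-181b-5p (0.88), miR-16b-5p (0.85), miR-23a (0.83) and miR-27a-3p (0.81). miR-338-5p averaged 1362 ± 620 RPM at 1 day, 2676 ± 971 at 60 days, 2550 ± 1560 at 120 days and 3024 ± 2317 at 180 days. miR-219, another oligodendrocyte miRNA, had its highest mean on day 1: 58.7 ± 98.5, 14.9 ± 9.19, 12.6 ± 6.81 and 15.4 ± 10.1 RPM at the 4 ages in order. Its day-1 libraries ran from 3.05 to 234 RPM, and no library of a later age exceeded 28.5 RPM. limma and edgeR called neither miR-338-5p nor miR-219 in any pair of ages, and DESeq2 called miR-219 in 2 pairs.

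The list for miR-24-5p held miR-338-3p (r = 0.85), miR-219 (0.82), miR-338-5p (0.76), miR-23b-3p (0.76) and miR-181b-5p (0.72). That for miR-24-3p held miR-151-5p (0.85), miR-219 (0.84), miR-497-5p (0.84), miR-20b (0.84) and miR-21-5p (0.83). Here rho was lower, at 0.72, 0.74, 0.70, 0.55 and 0.65 in that order. Nearest to miR-27b-5p were miR-424-3p (0.80), miR-219 (0.74), miR-214-5p (0.68), miR-181b-5p (0.68) and the muscle miRNA miR-133a-3p (0.66).

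For miR-27b-3p the nearest were miR-450-5p (r = 0.79), miR-23b-3p (0.73), miR-338-3p (0.72), miR-26b-5p (0.72) and miR-16a-5p (0.69). miR-27a-3p had miR-23b-3p (0.81) and miR-23a (0.73) first, then miR-140-5p (0.72), miR-26a-5p (0.68) and miR-338-3p (0.68). miR-23a was followed by miR-23b-3p (0.83), miR-25-3p (0.82), miR-361-5p (0.78), miR-16a-5p (0.76) and miR-26b-5p (0.76). The list of miR-27a-5p held no other member and began with miR-378-3p (0.77), miR-199a-5p (0.75) and miR-483 (0.71). Their rho was lower, at 0.66, 0.53 and 0.62 in that order, and miR-483 averaged only 0.731 RPM, within the range of the floor. For miR-23b-5p it began with let-7b-5p (0.87), miR-224-5p (0.86) and let-7a-5p (0.83).

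Markers of blood vessels, where these clusters are abundant, were read beside the members. Of the 6 rows of the vessel list limma called none in any pair of ages, with 1 row, miR-145-3p, at an unadjusted p under 0.05 for day 60 and for day 120 against day 1. edgeR and DESeq2 called none of the 6 either. The endothelial miR-126-3p averaged 7639 ± 2963, 6945 ± 2278, 8623 ± 1528 and 7071 ± 1278 RPM at the 4 ages in order, with miR-126-5p at 229 ± 197, 261 ± 204, 400 ± 127 and 270 ± 125 RPM. The smooth muscle miR-143-3p averaged 79640 ± 77768, 51702 ± 44599, 59107 ± 40755 and 63434 ± 61428 RPM. The rows miR-143-5p, miR-145-5p and miR-145-3p had age means of 19.97 to 38.5, 918 to 1802 and 134 to 285 RPM.

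miR-128-3p, a neuronal miRNA whose seed overlaps that of miR-27 with an offset, shares part of its target letters with miR-27. It averaged 13816 ± 10737 RPM at 1 day, 16929 ± 6732 at 60 days, 24099 ± 16228 at 120 days and 11052 ± 6328 at 180 days, and limma called it in no pair of ages. Its age means were below those of miR-27b-3p at each age.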

How the data were processed

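The authors deposited 1 table of 683 miRNAs over 20 hypothalamus libraries, made per the labels' protocols from Trizol RNA with the NEBNext small RNA kit. Bowtie is named without a version in the submitters' processing notes. For the build, the miRNA catalogue and the counter the sources used here give no name. The deposited columns are named TPM, but per the values they are RPM: low values are whole multiples of 1 step in each column, and 100% of values below 1000 reads came out whole within 0.1 read. The deposited column of row sums, the RPM of a miRNA added over the 20 libraries, was not used.

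Members and lists were chosen with earlier results of these data known. limma (3.58.1, R 4.3.3; eBayes with trend) was fitted to log2(RPM + 1) of the 414 miRNAs with at least 1 RPM in at least 5 libraries, all 20 libraries and 4 age means in 1 fit, with Benjamini-Hochberg adjustment over the 414 at 0.05. Intervals used 25.5 degrees of freedom. Ratios were tested by exact permutation, adjusted over the 876 tests of the whole table. limma on the ratios was adjusted over the 146 ratios within each pair of ages. Alternatives were pseudocounts of 0.1 and 5, filters (none, 10 RPM), median-of-ratios and quantile scaling, no trend, 2 ages only, a replicate block, leaving out each library, and edgeR 4.0.16 and DESeq2 1.42.0 on recovered reads. The fit and the ratio tests were tested on simulated data. Named miRNAs are the members, the 5 most alike of each, the vessel list, miR-128-3p and list rows that passed. Outside this rule, and chosen after values were seen, are miR-9-5p, miR-7-5p and miR-124a (tissue check) and miR-219 and miR-338-5p (their age means). Mature sequences were not used here. The series' design text calls the 5 libraries of an age biological replicates, so p-values of differences between ages rest on the spread between animals. Those of the correlations come from permuting all 20 libraries across the ages, so differences between ages enter them.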

Additional observations from a re-analysis of the deposited data

Results flagged for a closer look

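In 4 of 68 groups of 5 libraries (5.88%), 1 library stood apart from the other 4 by a gap above the Dixon limit of 0.71 of the range of the group, and chance alone flags about 5% of groups. miR-23a measured 4491 RPM in replicate 3 of day 180. miR-24-5p measured 10.4 RPM in replicate 4 of day 180, where the other 4 animals held 36.4 to 38.6 RPM. The log2 ratio of miR-23a to miR-23b-3p was -1.22 in the same library. The log2 ratio of miR-27a-5p to miR-27a-3p was -4.78 in replicate 1 of day 120, and the difference with day 1 was -1.84 without it.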

How the results depend on the processing

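The count of 0 members called held in the F test and in each pair of ages under every alternative that was run, among them the replicate block, edgeR, DESeq2 and 20 fits with 1 library left out. miR-27a-5p could not be tested under the 10 RPM filter. Over the alternatives other than left-out libraries, the log2 fold change of miR-23a for day 120 against day 1 ran from 0.80 to 0.99. That of miR-27a-5p ran from -0.95 to -0.43 for day 60 and from -0.98 to -0.44 for day 120, against day 1. For ratios, 5 alternatives other than left-out libraries were run, among them pseudocounts of 0.1 and 5. Over these the change in the miR-27a arm ratio against day 1 ran from -1.50 to -0.90 for day 60. It ran from -1.76 to -1.37 for day 120 and from -1.52 to -1.13 for day 180. The number of member ratios called was 0 by the exact permutation test in all settings. With limma on the ratios it became 1 of 7, the miR-27a arm ratio, for day 60 (-1.17) and for day 120 (-1.65) against day 1. Over all 146 ratios the shares called were 19.2% and 6.85% in these comparisons. The exact test would have needed 140 of its 876 tests at the smallest p to reach 0.05 after adjustment. The sign-flip test of same-numbered libraries, the replicate block for ratios, cannot pass with 5 pairs and called 0. Replicate numbers showed no clear pairing of the animals. Deviations correlated above 0.1 in 11 of 30 same-numbered pairs of libraries and in 39 of 120 other-numbered pairs. The median r was 0.069 and -0.0455, and 4 of 20 libraries correlated best with their own number. The counts over all miRNAs, 8 in the F test and 16, 14 and 14 for day 60, day 120 and day 180 against day 1, ran from 6 to 90, 2 to 86, 4 to 74 and 5 to 61 over the other settings. With 1 library left out they ran from 5 to 16, 2 to 43, 7 to 29 and 5 to 31. Depth limits miR-23b-5p and miR-27a-5p most (19 to 174 and 23 to 116 reads per library), and miR-27b-3p least (at least 64759 reads).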

Other observations

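Among the miRNAs listed as markers of other cell types, limma called miR-122, a liver miRNA, higher on day 60 than on day 1, and the multiciliated miR-449a-5p lower in each comparison with day 1. edgeR and DESeq2 also called miR-122 and miR-449a-5p, and besides them miR-34c-5p and miR-34c-3p of the multiciliated list and miR-206 of the muscle list. DESeq2 alone called miR-219 of the oligodendrocyte list and miR-133b of the muscle list. Summed over its 3 rows, the oligodendrocyte list spanned 417 to 2812 RPM at 1 day, 1419 to 4001 at 60 days, 552 to 5096 at 120 days and 696 to 7456 at 180 days. miR-3074, which lies opposite miR-24 in other mammals, is not analysed here.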
